A study of Mus musculus with 4 samples.

Results

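The mitosis and cytokinesis genes described here are 35 genes that drive a cell from late G2 through chromosome segregation to the splitting of the daughter cells. They were taken as a named list, and each was matched by its exact symbol in the authors' deposited table to 1 probe set of the array, so that all 35 of the 29432 genes tested were measured. The measurements are Affymetrix MoGene 2.0 ST arrays of whole liver from untreated C57BL/6 mice aged 8 weeks. There were 2 FF animals, the control, and 2 KO animals, a knockout of Gdown1, a protein that binds RNA polymerase II and is encoded by Polr2m. In the authors' deposited table the column names for these groups are f/f and Alb-cre. Cre driven by the albumin promoter is active mainly in hepatocytes and can also act in cholangiocytes, so other cells of the liver may keep the gene, and Cre alone was not a group. Values are log2 signals, with 4 arrays in all.

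In a dividing cell these genes act in turn. Cyclins A and B activate CDK1, Aurora and Polo kinases build the spindle, and the spindle checkpoint restrains the anaphase-promoting complex until chromosomes are attached. The central spindle and the RhoA pathway then cut the cell. Adult hepatocytes rarely divide, and many are polyploid because earlier divisions ended without cytokinesis. Most of these genes are held off in resting cells by the MuvB complex, which binds a short promoter element, the cell cycle gene homology region (CHR). The kinase inhibitor p21, encoded by the p53 target Cdkn1a, strengthens that repression.

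The targeted gene Polr2m lay at 7.35 and 7.38 in FF and at 6.35 and 6.18 in KO, a log2 fold change of -1.10 ± 0.12 (limma standard error, as for every ± after a log2 fold change below) with a limma adjusted p of 0.0215. The labels do not say whether its probes lie in the deleted part. All 12 hepatocyte marker genes were above background on average. With so few arrays an exact permutation test cannot go below a two-sided p of 0.333, so p-values come from limma, which shares the spread over all genes. They measure the spread between 2 animals a group. Adjustment (Benjamini-Hochberg) ran over the 29432 genes, and calls were made at an adjusted p under 0.05.

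The promoters of some members with large differences are shown first, because the CHR and the CCAAT box are what most of these genes share beyond their function. Apart from Gtse1, they were chosen only among members with a CHR in the window, by the size of the difference. Each runs from 250 bases before to 50 after a RefSeq transcription start (GRCm38.p6), 5′ to 3′ on the gene's strand. Capitals of 6 letters mark a CHR (TTTGAA or TTCGAA) and capitals of 10 letters mark a p53 consensus decamer. Psrc1 lies at chr3:108383554-108383853 (+), Ckap2 at chr8:22185770-22186069 (-), Ect2 at chr3:27153805-27154104 (-), Aurka at chr2:172370521-172370820 (-) and Gtse1 at chr15:85859696-85859995 (+). Gtse1 has no CHR in its window and was added after its value was seen.
Psrc1: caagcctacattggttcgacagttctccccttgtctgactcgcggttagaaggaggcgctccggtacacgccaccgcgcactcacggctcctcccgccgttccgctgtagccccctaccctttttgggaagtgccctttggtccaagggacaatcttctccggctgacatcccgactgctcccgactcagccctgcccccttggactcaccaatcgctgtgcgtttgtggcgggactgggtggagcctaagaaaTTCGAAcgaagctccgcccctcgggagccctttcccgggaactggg
Ckap2: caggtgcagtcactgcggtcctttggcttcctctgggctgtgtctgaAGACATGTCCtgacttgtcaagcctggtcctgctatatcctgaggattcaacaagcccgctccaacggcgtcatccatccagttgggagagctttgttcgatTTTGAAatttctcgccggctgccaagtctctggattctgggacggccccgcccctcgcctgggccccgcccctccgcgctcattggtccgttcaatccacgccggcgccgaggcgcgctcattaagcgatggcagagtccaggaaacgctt
Ect2: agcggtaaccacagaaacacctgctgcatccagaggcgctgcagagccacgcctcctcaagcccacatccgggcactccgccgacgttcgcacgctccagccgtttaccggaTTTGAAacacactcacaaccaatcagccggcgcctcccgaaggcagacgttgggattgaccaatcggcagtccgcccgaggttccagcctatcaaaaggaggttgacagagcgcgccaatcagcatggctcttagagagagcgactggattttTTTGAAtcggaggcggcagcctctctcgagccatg
Aurka: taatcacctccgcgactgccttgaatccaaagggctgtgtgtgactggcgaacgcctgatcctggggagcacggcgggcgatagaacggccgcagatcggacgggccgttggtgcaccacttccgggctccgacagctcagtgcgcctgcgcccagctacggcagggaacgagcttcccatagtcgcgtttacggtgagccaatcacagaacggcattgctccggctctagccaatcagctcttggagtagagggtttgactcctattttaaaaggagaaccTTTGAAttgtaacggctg
Gtse1: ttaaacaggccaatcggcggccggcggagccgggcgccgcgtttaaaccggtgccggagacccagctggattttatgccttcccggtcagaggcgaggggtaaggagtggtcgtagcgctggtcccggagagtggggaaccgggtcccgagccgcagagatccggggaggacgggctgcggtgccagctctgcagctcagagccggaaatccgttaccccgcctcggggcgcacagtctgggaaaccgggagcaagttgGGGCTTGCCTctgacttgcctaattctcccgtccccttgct

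The promoter table held 28 of the 35 genes. A CHR, read on both strands as TTTGAA or TTCGAA, stood in the window of 22 of these 28 (78.6%) and in 21.7% of the 27025 genes of the whole table. The CCAAT box, also on both strands, stood in 23 of 28 (82.1%), against 41.1% of all genes. The p53 consensus decamer stood in 5 of 28 (17.9%), against 9.55% of all genes, also read on both strands. A match of one motif may share letters with a match of another, which does not occur in the promoters shown. In Ckap2 the CHR lay at -101 to -96 from the start and the decamer AGACATGTCC at -203 to -194. In Gtse1 the decamer GGGCTTGCCT lay at 10 to 19 after the start. Another Gtse1 start, with the window chr15:85859457-85859756, had 0 decamers. Where a gene had more than 1 start, the one with the most CHR and decamer matches was shown. A match in letters is not a bound site. The 22 genes with a CHR had a median log2 fold change of 0.30 (-0.20 to 1.70), and the 6 without had 0.25 (-0.23 to 1.57).

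Of the 35 genes, 3 rose in KO liver and 0 fell: Gtse1, Ckap2 and Ect2. Of all genes tested, 1.77% were called, as 0.996% rose and 0.778% fell. A further gene, Psrc1, had the highest log2 fold change of the 35 but did not pass. Over all 35 the median log2 fold change was 0.29, against -0.02 over all genes tested. The mean was higher in KO for 30 of the 35 genes, against 46% of all genes. Both KO arrays lay above both FF arrays for 23 genes, or 65.7%, against 21.6% of all genes. Both lay below for 1 gene, Kif23, where the share of all genes was 25%. At an adjusted p under 0.1 the count was 8 of 35, against 2.56% of all genes. At an unadjusted p under 0.05, 13 of the 35 were higher and 0 lower, against 9.38% and 7.6% of all genes.

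**Figure D1:**
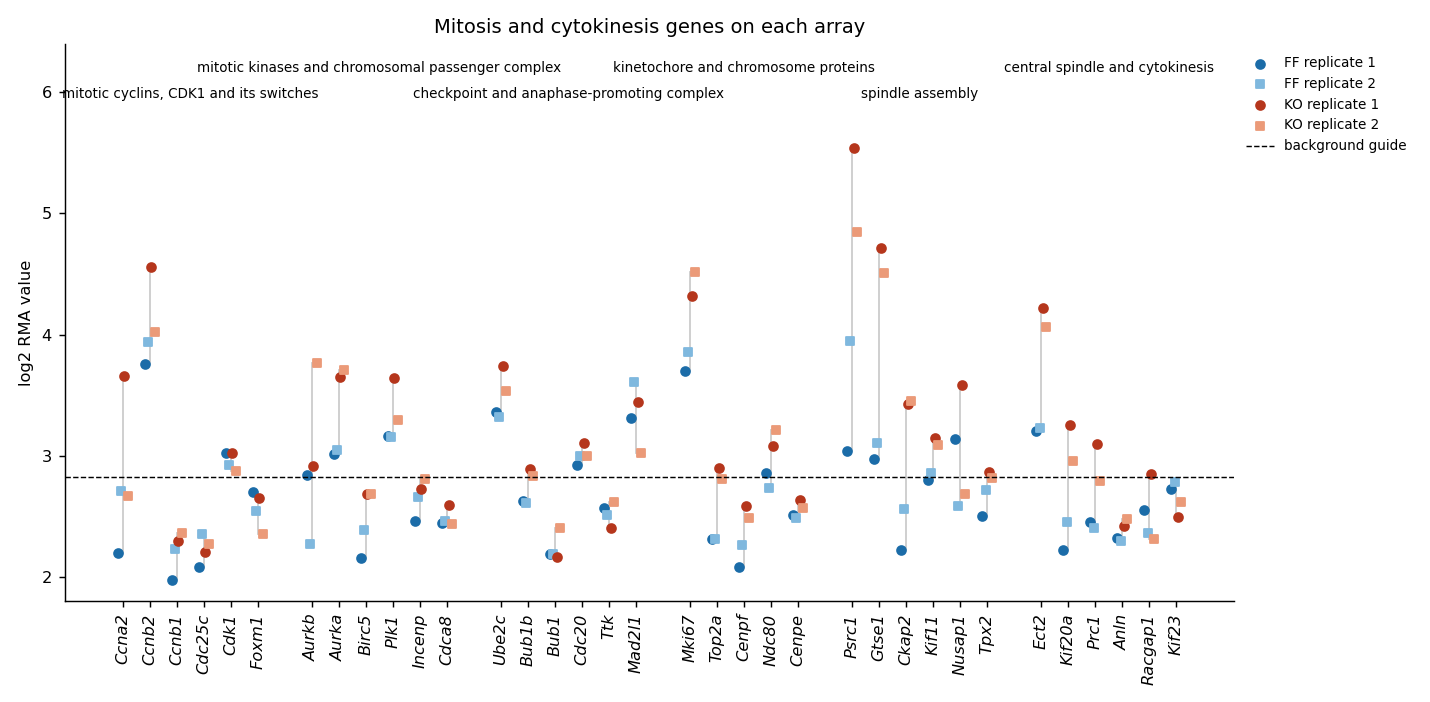
Log2 RMA value of each of the 35 genes (horizontal axis, grouped by role) on the 4 arrays, with FF in blue and KO in red and the background guide at 2.82 as a dashed line. Psrc1, Gtse1, Ckap2 and Ect2 stand out with both KO points clear of both FF points, while most other genes lie close to the guide.

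Most of these genes gave little signal. The guide to background is 2.82, the level under which 95% of 1127 olfactory receptor genes lay, since liver is not known to use those receptors. On average over the 4 arrays 16 of the 35 genes lay above it (45.7%), against 51.8% of all genes. In FF liver 13 did, in KO liver 22, and 9 genes crossed from below it in FF to above it in KO. Of all 29432 genes, 15383 lay above it in FF, 15164 in KO, and 624 crossed in that direction. For 12 of the 35 genes no array was above it. RMA compresses folds near background, so a fold from such a level may understate a change, but it may also have the wrong size or sign. The direction was the same in the authors' deposited table as here for 14 of the 22 genes with an FF mean not above the guide. For the 13 genes with an FF mean above it, the direction was the same for 10. Of all 29432 genes it was the same for 17738.

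Genes of the spindle held the largest differences. Gtse1, a protein of growing microtubule ends that slows G2 and was described in mouse as a p53-induced gene, lay at 2.97 and 3.10 in FF and at 4.72 and 4.51 in KO. The groups were far apart compared with the gap within each. Gtse1 rose by 1.57 ± 0.13 on the log2 scale, or 2.98-fold (limma adjusted p = 0.0115). Psrc1, a microtubule-binding protein that helps chromosomes gather at the spindle equator and is also a known p53 target, lay at 3.04 and 3.95 in FF and at 5.54 and 4.85 in KO. Both KO values were the higher ones, but the FF animals differed from each other by about as much as the nearest arrays of the 2 groups. Its log2 fold change was 1.70 ± 0.35 with a limma adjusted p of 0.0895. Ckap2, a spindle microtubule stabiliser, lay at 2.22 and 2.56 in FF, under the guide, and at 3.42 and 3.45 in KO. The KO arrays agreed closely and stood clear of background. Ckap2 rose by 1.04 ± 0.15, or 2.06-fold (limma adjusted p = 0.0378).

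The other spindle genes differed less. Kif11 is the motor that pushes spindle poles apart, Tpx2 brings Aurora A to the spindle and Nusap1 bundles its microtubules. Their log2 fold changes were 0.29, 0.23 and 0.27, and limma called none of them. Nusap1 was high on replicate 1 of each group, at 3.14 in FF and 3.58 in KO, and low on replicate 2, at 2.58 and 2.69, so its groups overlapped.

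Among the genes of the central spindle and of cytokinesis, Ect2 rose. Ect2 activates RhoA at the cleavage furrow. It lay at 3.20 and 3.23 in FF and at 4.22 and 4.06 in KO. The gap between the groups was several times the gap within either. The rise was 0.93 ± 0.12, or 1.90-fold (limma adjusted p = 0.0307). Kif20a, a motor that carries the chromosomal passenger complex to the midzone, lay at 2.22 and 2.45 in FF and at 3.25 and 2.96 in KO. It crossed the guide, with a log2 fold change of 0.77 ± 0.16 and a limma adjusted p of 0.0840. Prc1, which bundles the antiparallel microtubules of the midzone, lay at 2.45 and 2.40 in FF and at 3.10 and 2.79 in KO, a log2 fold change of 0.52 ± 0.14 that did not pass. Its groups did not overlap, though KO replicate 2 was under the guide.

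Partners of Ect2 were not called, and they gave too little signal for their folds to be set against that of Ect2. Kif23 and Racgap1 together form centralspindlin, the complex that recruits Ect2. Kif23 had a log2 fold change of -0.20 ± 0.12 and Racgap1 one of 0.12 ± 0.20. Anln, which links actin, myosin and RhoA at the furrow, had 0.14 ± 0.11. Kif23 and Anln lay under the guide on all 4 arrays, and Racgap1 was above it on 1. In the authors' deposited table Kif23 had a log2 difference of 0.77. The limma intervals at 95% ran from -0.49 to 0.10 for Kif23, from -0.37 to 0.61 for Racgap1 and from -0.14 to 0.41 for Anln.

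Leaving out any 1 array leaves a group with 1 array, too few to show whether the calls hold. Only log2 fold changes are given for these fits. The log2 fold change then ran from 1.47 to 1.68 for Gtse1, from 0.87 to 1.22 for Ckap2 and from 0.85 to 1.00 for Ect2, while that of Psrc1 ran from 1.25 without FF replicate 1 to 2.16 without FF replicate 2. With all 41345 probe sets tested none of the 3 passed, with limma adjusted p-values of 0.0662, 0.114 and 0.0957 for Gtse1, Ckap2 and Ect2.

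**Figure D2:**
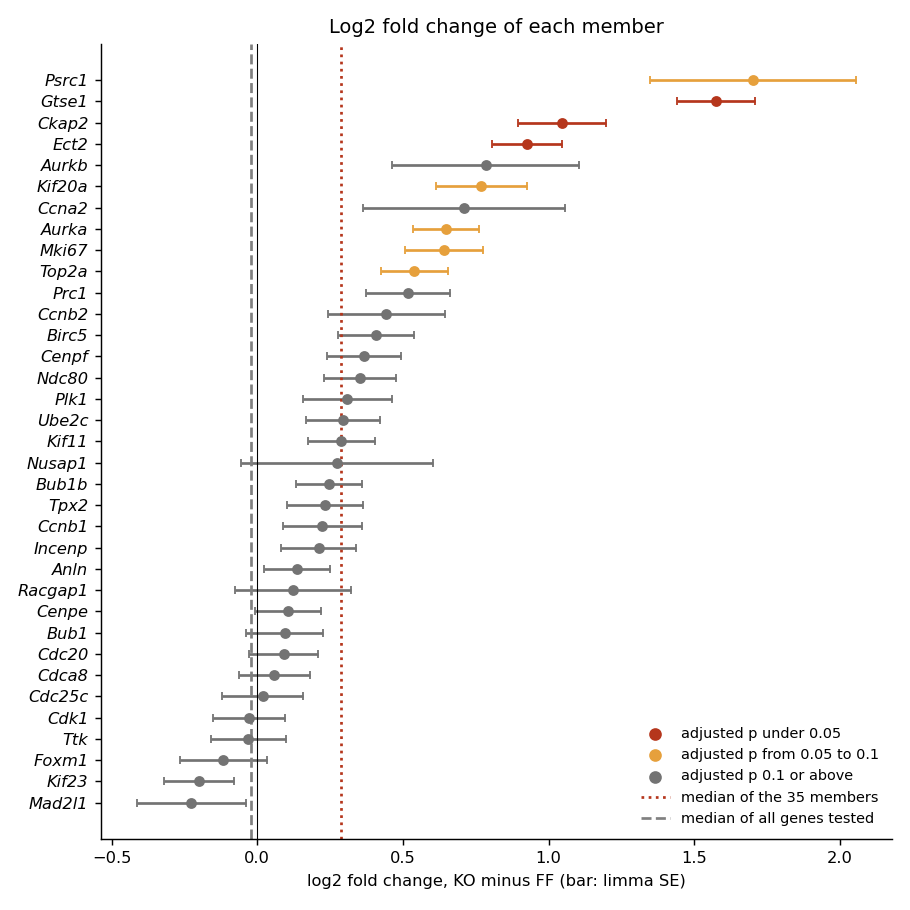
Log2 fold change of each of the 35 genes, KO minus FF (horizontal axis), with its limma standard error as a bar and colours for the range of its adjusted p. Gtse1, Ckap2 and Ect2 (red) passed, 5 genes (orange) had an adjusted p from 0.05 to 0.1, and the median of the 35 (0.29, dotted) lies to the right of that of all genes (-0.02, dashed).

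The cyclins and their kinase gave no call. Ccna2, cyclin A2, which acts in S phase and on entry into mitosis, lay at 2.19 and 2.71 in FF and at 3.65 and 2.67 in KO. KO replicate 1 alone stood above the guide, so the log2 fold change of 0.71 ± 0.35 rests on it and was 0.22 without that array. Ccnb2, a B-type cyclin, lay at 3.76 and 3.93 in FF and at 4.56 and 4.02 in KO, with KO replicate 1 again the highest. Its log2 fold change was 0.44 ± 0.20, or 0.17 without that array. Ccnb1, the main mitotic cyclin, lay under the guide on all arrays, at 1.98 and 2.23 in FF and at 2.29 and 2.36 in KO.

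Cdk1, the kinase these cyclins activate, lay above the guide on all 4 arrays. Its values were 3.02 and 2.92 in FF and 3.02 and 2.87 in KO, which overlap. The log2 fold change was -0.03 ± 0.12, with a 95% interval from -0.33 to 0.28. Cdc25c, the phosphatase that activates CDK1, had a log2 fold change of 0.02 ± 0.14. Foxm1, the transcription factor that drives many G2/M genes, had -0.12 ± 0.15, and limma called neither. Both lay under the guide on all arrays. In the authors' deposited table the log2 difference of Cdk1 was 0.82 and that of Foxm1 was 0.30, so the 2 tables disagree on these genes.

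The mitotic kinases lay higher in KO on average, without a call. Aurka, the Aurora kinase of the spindle poles, lay at 3.02 and 3.05 in FF and at 3.65 and 3.71 in KO. All 4 arrays were above the guide and the groups were well apart. Its log2 fold change was 0.65 ± 0.11 with a limma adjusted p of 0.0630, and it passed with each array centred on its median (0.0465) or with the dimmer 50% of genes left out (0.0440). Aurkb, the Aurora kinase of the passenger complex, lay at 2.84 and 2.27 in FF and at 2.91 and 3.76 in KO. Here KO replicate 2 was the high one, and the log2 fold change of 0.78 ± 0.32 was 0.36 without that array.

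Its partners in the complex gave less signal. Birc5, or survivin, lay at 2.15 and 2.39 in FF and at 2.68 on both KO arrays, all under the guide, a log2 fold change of 0.41 ± 0.13. Incenp, the scaffold, and Cdca8, or borealin, had log2 fold changes of 0.21 and 0.06 and were likewise under the guide on every array. Plk1, the Polo kinase, lay at 3.16 and 3.15 in FF and at 3.64 and 3.29 in KO, a log2 fold change of 0.31 ± 0.15. None of these 4 passed limma, with adjusted p-values from 0.201 to 0.870.

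Checkpoint genes and those of the anaphase-promoting complex had a median log2 fold change of 0.09, the lowest of the 6 roles in the value table. In the authors' deposited table their median was 0.295, above that of the mitotic kinases (0.095) and of the kinetochore and chromosome genes (0.21). Ube2c, the ubiquitin-conjugating enzyme of that complex, lay at 3.36 and 3.32 in FF and at 3.74 and 3.53 in KO, a log2 fold change of 0.29 ± 0.13. Bub1b, a checkpoint kinase-like protein, lay at 2.62 and 2.61 in FF and at 2.89 and 2.84 in KO, just across the guide. Mad2l1, which holds back CDC20, lay at 3.31 and 3.61 in FF and at 3.44 and 3.03 in KO. The groups were apart for Ube2c and Bub1b and overlapped for Mad2l1. The log2 fold change was 0.25 ± 0.11 for Bub1b and -0.23 ± 0.19 for Mad2l1.

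The remaining checkpoint genes overlapped between the groups. The log2 fold change was 0.09 for Cdc20, the activator of the complex, 0.09 for the kinase Bub1 and -0.03 for the kinase Ttk. No gene of this role passed, and each of its 6 intervals at 95% lay within a 2-fold change either way. Over all 35 genes 27 intervals lay within that range, and over all 29432 genes tested 27228 did.

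The genes of chromosomes and kinetochores were higher on both KO arrays than on both FF arrays in 5 of 5 cases, where the share of all genes was 21.6%, and limma called none of them. Mki67, the proliferation marker Ki-67 that coats mitotic chromosomes, lay at 3.70 and 3.86 in FF and at 4.32 and 4.52 in KO. It was above the guide throughout, with a log2 fold change of 0.64 ± 0.13 and a limma adjusted p of 0.0909. Top2a, the topoisomerase that untangles sister chromatids, lay at 2.31 on both FF arrays and at 2.90 and 2.81 in KO. It lay under the guide in FF and near it in KO, with a log2 fold change of 0.54 ± 0.11 and a limma adjusted p of 0.0926. Cenpf, a late kinetochore protein, lay at 2.08 and 2.26 in FF and at 2.59 and 2.48 in KO, under the guide on every array.

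Ndc80, the microtubule-binding core of the kinetochore, had a log2 fold change of 0.35 ± 0.12, and Cenpe, a kinetochore motor, had 0.11 ± 0.11. The log2 fold change of Cenpf was 0.37 ± 0.13. Their limma adjusted p-values were 0.233, 0.719 and 0.230.

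The KO arrays differed from each other for some of the 35 genes. KO replicate 1 was above KO replicate 2 for 22 of the 35 genes and below it for 12. Of all 29432 genes it was above for 14791 and below for 14374. The KO arrays differed by more than 0.5 on the log2 scale for 6 genes, namely Ccna2, Ccnb2, Nusap1, Psrc1 and Racgap1, all higher on replicate 1, and Aurkb, higher on replicate 2. The FF arrays differed by as much for 4 genes, Ccna2, Aurkb, Nusap1 and Psrc1. Of all 29432 genes the KO arrays differed by more than 0.5 for 1778 and the FF arrays for 1658. The median absolute gap between the KO arrays was 0.16 for the 35 genes and 0.15 for all genes. The median log2 fold change over the 35 genes was 0.36 for KO replicate 1 against the FF mean and 0.22 for KO replicate 2.

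The authors' deposited table holds group averages whose processing no source here states. Whether those averages come from the same arrays as the value table was not tested. The authors' deposited table is given here as a second comparison of KO with FF. In it Gtse1, Ckap2, Ect2 and Psrc1 had log2 differences of 1.61, 1.09, 1.38 and 1.33, the same direction as above. Mki67 had 1.09, Ccna2 had 1.28 and Top2a had 0.84, each larger than in the value table. Aurkb had 0.10, Aurka 0.35, Ndc80 0.14 and Cenpf 0.01 in the authors' deposited table, each smaller than in the value table. Of the 35 genes 29 were higher in KO there, 5 were lower and 1 was equal. Of all 29432 genes 14306 were higher there, 13877 lower and 1249 equal, and 17738 had the same direction in both tables. The direction was the same in both tables for 24 genes, which leaves 10 of opposite sign and Racgap1, equal there. Kif23 and Ttk are among those, at 0.77 and 0.73 in the authors' deposited table and -0.20 and -0.03 in the value table.

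**Figure D3:**
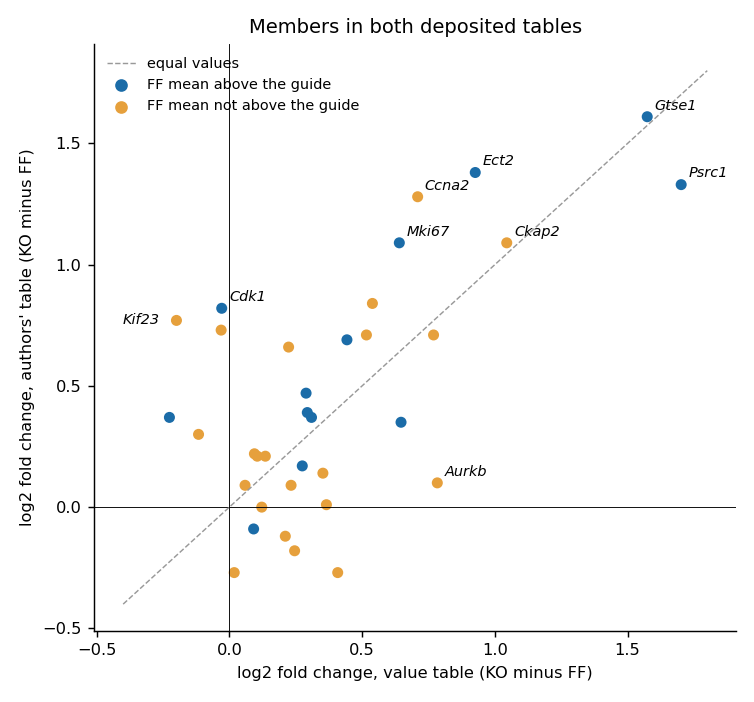
Log2 fold change of the 35 genes in the value table (horizontal axis) against that in the authors' deposited table (vertical axis), KO minus FF, coloured by whether the FF mean lies above the background guide of 2.82. Gtse1, Ckap2, Ect2 and Psrc1 are high in both, while Cdk1 and Kif23 are above 0 only in the authors' deposited table.

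Other genes of cell division were read from 8 lists, without the 35 genes, that hold 180 genes. Outside the list of p53-induced brakes, limma called 0 of 169 genes (24 at an unadjusted p under 0.05, 18 of them higher), and their median log2 fold change was 0.11. The shares of all genes at that unadjusted p were 9.38% higher and 7.6% lower. The mean was higher in KO for 71.0% of the 169, against 46% of all genes, and both KO arrays lay above both FF arrays for 39.6%, against 21.6%. Of these 169 genes 115 lay above the guide, so many were better measured than the 35. In the kinetochore and centromere list 0 of 38 genes passed, with a median of 0.11 and the largest values at Mad2l2 (0.59) and Ska2 (0.54). In the list of spindle motors, poles and midbody 0 of 33 passed, with a median of 0.10, and Ckap5, a microtubule polymerase, had 0.38 and Cenpj, a centriole protein, 0.33. Condensin and cohesin gave 0 of 20, with a median of 0.08, and the largest values were Smc3 at -0.34 and Ncapd3 at 0.32.

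The remaining lists held no call outside the p53-induced brakes. Subunits and partners of the anaphase-promoting complex gave 0 calls among 15 genes, with a median of 0.19 and the largest values at its subunits Anapc16 (0.66) and Cdc16 (0.49). The mean was higher in KO for 14 of the 15, both KO arrays lay above both FF arrays for 8 (53.3%), and 5 were higher at an unadjusted p under 0.05. Of all genes, these shares were 46%, 21.6% and 9.38%. Kinases, phosphatases and cofactors of G2/M entry gave 0 of 22, with a median of 0.11, and Bora and Ppp2r2a had 0.40 and 0.30. The list of cytokinesis ring and abscission genes gave 0 of 22, with a median of 0.17, and its largest values were the myosin gene Myh9 at 0.74 and the formin gene Diaph1 at 0.56. In that list both KO arrays lay above both FF arrays for 16 of 22 genes (72.7%), against 21.6% of all genes. At an unadjusted p under 0.05, 5 of its genes were higher and 1 lower, against 9.38% and 7.6% of all genes. Septins were in that list but not tested, as no probe set in the authors' deposited table carries their symbol as such.

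In the list of MuvB, DREAM and E2F regulators limma called 0 of 21 genes, with a median of -0.01. Mybl1, a relative of the factor that turns MuvB into an activator, lay at 2.25 and 2.59 in FF and at 5.39 and 3.77 in KO. Both KO arrays were well above both FF arrays but far from each other, and the log2 fold change of 2.16 ± 0.50 did not pass (limma adjusted p = 0.113). Rbl1, or p107, a pocket protein that represses with MuvB, had 0.90 ± 0.19.

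The list of p53-induced brakes on G2 and mitosis held 7 rises and 0 falls among 11 genes, with a median of 1.45. Of all genes, 0.996% were called higher. The list also holds Trp53, the gene of p53 itself, and Mdm2, an inhibitor of p53, which are not such brakes. This direction was known when the list was made. Cdkn1a lay at 4.18 and 4.70 in FF and at 9.81 and 9.67 in KO, a rise of 5.30 ± 0.19 (limma adjusted p = 0.00135). Ccng1, cyclin G1, and Plk2, a Polo-like kinase that responds to stress, rose by 2.16 ± 0.13 and 2.15 ± 0.12, and Zmat3, Btg2, Mdm2 and Trp53 by 2.46, 1.90, 1.45 and 0.85. Gadd45a, Sfn, Rprm and Plk3 did not pass, at 0.35, -0.04, -0.12 and -0.49.

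**Figure D4:**
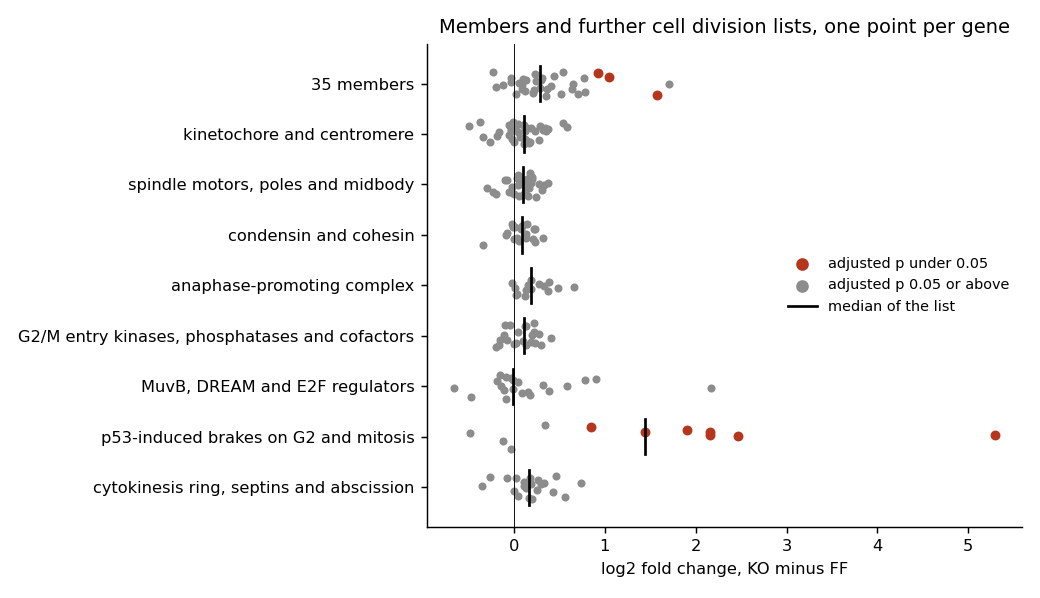
Log2 fold change, KO minus FF (horizontal axis), of the 35 genes and of the genes of 8 further cell division lists, with 1 point per gene, red where limma called it and a black line at the list's median. Calls appear among the 35 genes and in the list of p53-induced brakes, and the medians of the other 7 lists run from -0.01 to 0.19.

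Markers of other liver cells moved with the groups. In whole liver more cells of a type and more RNA per cell cannot be told apart. The summed linear signal of 7 cholangiocyte markers was 2.95 times the FF mean on KO replicate 1 and 2.17 times on KO replicate 2, and 1 of the 7, Tspan8, rose (limma). That of 11 Kupffer cell and macrophage markers was 2.13 and 1.37 times, with 11 of 11 higher on both KO arrays, against 21.6% of all genes. Limma called 0 of these 11, against 0.996% of all genes called higher, and 7 were higher at an unadjusted p under 0.05. That of 8 stellate cell markers was 1.95 and 1.63 times, with Rgs5 and Reln called, and that of 8 sinusoidal endothelial markers was 1.26 and 1.20 times. Of the 7 cholangiocyte markers, 3 lay above the guide in FF and 6 in KO. Their means ran from 2.04 to 6.99 in FF and from 2.44 to 8.47 in KO, so the brightest weigh most in the sum.

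The 12 hepatocyte markers summed to 0.850 and 0.856 times the FF mean. The 9 T and B lymphocyte markers were at 1.11 and 0.833 times, with 4 of 9 above the guide on average, and 0 of the 7 neutrophil markers were above it. The 6 erythroid markers were at 1.07 and 1.18 times. The range of the summed linear signal was 148 to 236 in FF and 416 to 566 in KO for cholangiocyte markers, and 1060 to 1148 and 1510 to 2354 for Kupffer cell and macrophage markers. Summed stellate cell signal ran from 1374 to 1531 in FF and from 2364 to 2827 in KO. KO replicate 1 had the higher sums of cholangiocyte, macrophage and stellate markers. It was the higher KO array for 22 of the 35 mitosis and cytokinesis genes and the lower one for 12. Of the called genes, Gtse1 and Ect2 were higher on it and Ckap2 was lower. Of all 29432 genes KO replicate 1 was the higher for 14791 and the lower for 14374. The part of these cell types in the values of the mitosis and cytokinesis genes was not tested.

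**Figure D5:**
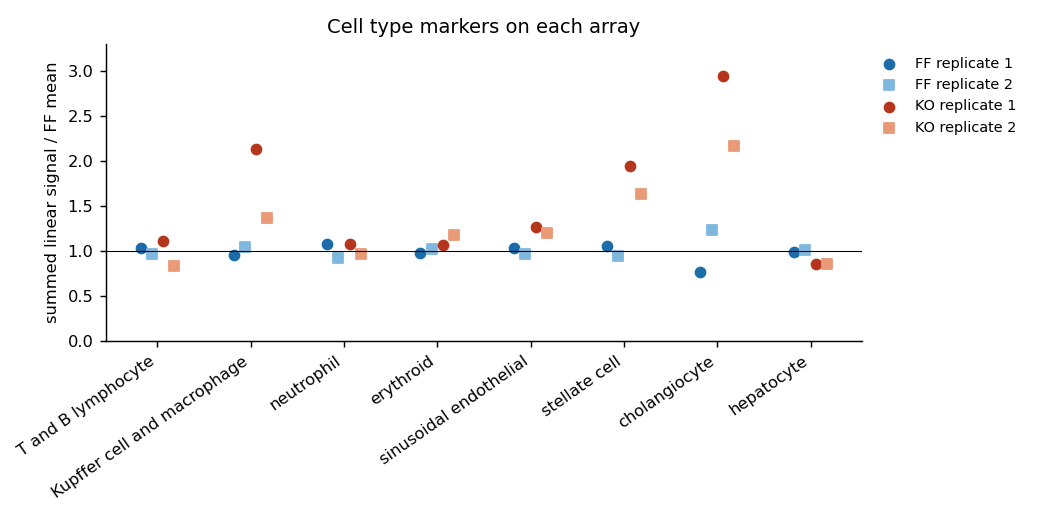
Summed linear signal of each cell type's markers divided by the mean of the 2 FF arrays (vertical axis), per array. Cholangiocyte, macrophage and stellate markers are higher on both KO arrays, most on KO replicate 1, and hepatocyte markers are at 0.850 and 0.856 times.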

How the data were processed

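Liver RNA was hybridised to 4 arrays, labelled as biological replicates and read here as 1 animal each, since pooling is not mentioned. The authors deposited log2 values. The submitters' processing notes name RMA and Expression Console, without a version. RMA makes the probe intensity distributions of the arrays equal before summarising them, so a change in total RNA per cell cannot be seen. The medians of the deposited values still ran from 2.88 on KO replicate 1 to 2.92 on FF replicate 1. The log base follows from the authors' second table, which holds, per the file headers, log2 averages of each group and a signed linear fold, used here as the difference of the averages. Gene names come from that table.

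Probe sets with 1 symbol were kept and the one with the highest mean was used per gene, which gave 29432 genes. The 35 members each had 1 probe set. KO and FF were compared by lmFit and eBayes of limma 3.58.1 (R 4.3.3), without block or filter. The fit had 5.79 degrees of freedom, of which 3.79 come from the prior. It was run on data simulated from the fitted model itself, which cannot show whether that model suits these arrays. Array number limits the precision, and depth has no meaning here. The members, lists and tests were chosen with earlier results of these data known, so no count or share over them, in the results above included, is independent of those results. Genes are named with the value on each array when called or among the 3 largest differences of their role. Of each further list the called genes are named, or the 2 with the largest difference. Promoter sequences are RefSeq's (GRCm38.p6). Alternatives are given at the end. No batch or scan date was found in the labels.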

Additional observations from a re-analysis of the deposited data

How the results depend on the processing

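The count of 3 rises among the 35 genes was 0 with the replicate block, 0 with all probe sets tested and 8 at an adjusted p under 0.1. The replicate block, with the replicate number of the labels as a term, also took the calls in the further lists from 7 to 2. The labels do not say whether the numbers pair the animals. Deviations of same-numbered arrays correlated at -0.00639 over genes, which cannot decide it with 2 arrays a group. The further lists held 14 calls at an adjusted p under 0.1. The count of falls was 0 in each of these settings. The median log2 fold change of the 35 genes ran from 0.22 to 0.36 without single arrays. It was 0.40 with the dimmer 50% of genes left out, which keeps 16 members, and 0.37 in the authors' deposited table. With the guide at the median of the olfactory receptors instead of their 95th percentile, 35 genes rather than 16 lay above it.

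Some log2 fold changes of genes that were not called changed sign. Without single arrays they ran from -0.10 to 0.0471 for Cdk1, -0.12 to 0.15 for Cdc25c, -0.17 to 0.72 for Nusap1, -0.0196 to 0.14 for Cdca8, -0.14 to 0.0761 for Ttk, -0.14 to 0.39 for Racgap1, -0.27 to 0.0333 for Foxm1 and -0.0245 to 0.21 for Bub1. Ttk was at 0.0111 with cyclic loess. In the authors' deposited table the values of opposite sign were 0.82 for Cdk1, -0.27 for Cdc25c, 0.30 for Foxm1, -0.12 for Incenp, -0.27 for Birc5, -0.18 for Bub1b, 0.73 for Ttk, 0.37 for Mad2l1, -0.09 for Cdc20 and 0.77 for Kif23. The cause was not tested. Alternatives that kept the count of rises within 1.5 times were centring of each array (4), cyclic loess (3), a trended prior (3), the mean of a gene's probe sets (3) and the dimmer 50% left out (4). With 2 animals a group and levels near background, small changes cannot be resolved.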

Other observations

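At an adjusted p under 0.1 the further lists held 7 genes outside the p53-induced brakes, all higher in KO, where 2.56% of all genes passed upwards. Anapc16, a small subunit of the anaphase-promoting complex, lay at 6.03 and 6.10 in FF and at 6.72 and 6.74 in KO (limma adjusted p = 0.0596). Myh9, the non-muscle myosin heavy chain of the contractile ring, lay at 7.18 and 7.06 in FF and at 7.99 and 7.73 in KO (0.0718). The formin gene Diaph1 had a log2 fold change of 0.56 ± 0.11 and Mad2l2 one of 0.59 ± 0.12. Rb1, the retinoblastoma protein, lay at 6.61 and 6.51 in FF and at 7.17 and 7.12 in KO, a log2 fold change of 0.59 ± 0.12. Rbl1 and Ska2 were the others, at 0.90 and 0.54. Myosin and formin genes also serve cells that do not divide, and 5 of these 7 genes, all but Rbl1 and Ska2, lay far above background.

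E2f8, an atypical E2F repressor linked to hepatocyte polyploidy, lay at 3.89 and 4.57 in FF and at 4.39 and 5.65 in KO, so its groups overlapped. Its partner E2f7 lay under the guide on all 4 arrays. E2f8 was chosen after its value was seen.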
